A study of Mus musculus with 72 samples.

Results

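MicroRNA (miRNA) was compared between the lungs of mice given 8 Gy of X-rays to the whole body and the lungs of sham-irradiated mice. The comparison rests on the 6 lung miRNA arrays whose titles give 8 Gy or 0 Gy, 3 mice a group, out of 72 arrays in the series. All animals were female C57BL/6 J mice of 6 to 8 weeks with no other treatment named. A single surface dose was delivered at 1.05 Gy/min, the 0 Gy mice were placed in the same type of container without exposure, and organs were taken 48 h later. The series also holds lungs at 1, 2, 4 and 12 Gy, livers of all doses and mRNA arrays of both tissues. The published account covers the liver, and the lung arrays were measured alongside it. The labels number the animals, so the 0 Gy mice are called mice 1, 11 and 21 and the 8 Gy mice are called mice 5, 15 and 25.

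Each array carried 58594 spots and 4415 probes for 1881 mouse miRNAs, with 7 to 30 spots for each probe. A miRNA entered the comparison when a probe of it was well above background, as the scanner software judges it, in at least 0.5 of its spots on at least 1 of the 18 lung miRNA arrays. This left 762 probes of 418 miRNAs. Levels are normalised log2 intensities, and a miRNA with several tested probes is described by its brightest one. Differences between groups are log2 fold changes, 8 Gy minus 0 Gy. Levels of different miRNAs cannot be set against each other, because probes differ in how well they bind.

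A miRNA is cut from a hairpin precursor into a single strand that guides the silencing complex to messenger RNAs. Pairing rests mainly on the seed, bases 2 to 8 from the 5′ end, and miRNAs that share a seed are grouped as a family. Some miRNAs mark cell types in the lung. miR-126a is made by endothelium, the miR-200 family by epithelium, miR-34b/c and miR-449 by multiciliated airway cells, miR-142a, miR-150, miR-155 and miR-342 by blood leukocytes, and miR-223 by myeloid cells above all. miR-34a is a direct transcriptional target of p53, the transcription factor activated by DNA damage, and lymphocytes are among the most radiosensitive cells of the body.

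The sequences of the miRNAs that the comparison turns on are given first, with the seed in capitals and U for uracil, 5′ to 3′. They are RefSeq mature sequences of mouse assembly GRCm38.p6, in which 354 of the 418 tested miRNAs were found by name. The first set holds 8 of the called miRNAs described below.
miR-34a-5p: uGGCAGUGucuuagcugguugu
miR-142a-5p: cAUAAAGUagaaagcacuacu
miR-142a-3p: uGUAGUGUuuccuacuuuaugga
miR-130b-3p: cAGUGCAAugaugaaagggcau
miR-128-3p: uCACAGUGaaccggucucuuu
miR-223-3p: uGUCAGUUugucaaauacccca
miR-155-5p: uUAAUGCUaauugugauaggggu
miR-342-3p: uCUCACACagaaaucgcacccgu

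The second set shows families in which some members were called, so that members can be told apart by their 3′ parts, and miR-503-5p, whose seed differs from that of miR-15b-5p in its last base.
miR-34b-5p: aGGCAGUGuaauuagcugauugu
miR-449a-5p: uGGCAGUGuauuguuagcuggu
miR-449c-5p: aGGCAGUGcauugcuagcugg
miR-130a-3p: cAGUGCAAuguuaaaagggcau
miR-301a-3p: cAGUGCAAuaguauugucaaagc
miR-15b-5p: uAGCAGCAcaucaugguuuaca
miR-16-5p: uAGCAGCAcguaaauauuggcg
miR-503-5p: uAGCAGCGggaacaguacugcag
miR-92a-3p: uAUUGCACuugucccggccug
miR-25-3p: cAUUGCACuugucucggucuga
miR-20a-5p: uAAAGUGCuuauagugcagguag
miR-17-5p: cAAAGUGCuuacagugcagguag

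The arrays of both groups differed in more than dose. All 0 Gy arrays shared a slide with the 1 Gy arrays, and all 8 Gy arrays shared another slide with the 12 Gy arrays and the 4 Gy mice 14 and 24. Slide and dose therefore cannot be told apart between 0 and 8 Gy in the lung alone. Median spot intensity was 68.5, 74 and 105 in the 0 Gy arrays and 40, 47 and 45.5 in the 8 Gy arrays. The number of probes well above background was 591, 622 and 448 at 0 Gy against 702, 631 and 669 at 8 Gy, with mouse 21 the lowest. No spot was saturated. Tissue markers fitted the label: on a scale shared with the liver arrays, miR-126a-3p stood at 16.51 in 0 Gy lung and 13.74 in 0 Gy liver, miR-200c-3p at 10.64 and 5.52, miR-34b-5p at 12.00 and 5.25, and the hepatocyte miRNA miR-122-5p at 6.40 and 16.84.

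At 8 Gy miR-34a-5p rose 2.00-fold. miR-142a-5p, miR-142a-3p and miR-150-5p, which are leukocyte miRNAs, fell to 0.31, 0.35 and 0.40 of their 0 Gy level. These 4 of 418 miRNAs (0.957%) passed the thresholds of the published analysis, an absolute log2 fold change above 1 and a Benjamini-Hochberg adjusted p below 0.05, in limma. Without the fold threshold, 71 miRNAs (17%) passed by their brightest probe, 52 higher (12.4%) and 19 lower (4.55%). Counting a miRNA when any of its probes passed gave 78 higher and 20 lower. Of 312 miRNAs with several tested probes, the probes differed in call for 50 and in sign for 42.

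By probe, 136 of 762 (17.8%) had an adjusted p below 0.05, 104 higher and 32 lower, and 277 had an unadjusted p below 0.05. The 8 probes that also passed the fold threshold were both probes each of miR-34a-5p, miR-142a-5p, miR-142a-3p and miR-150-5p. The split between higher and lower calls depended on the scaling. It was 14 higher and 418 lower with arrays scaled to the 75th percentile of the probes detected on every array, 601 higher and 6 lower with the 75th percentile of all probes, and 30 higher and 106 lower with the scanner software's processed signal. The median change over the 762 probes moved with it, from 0.16 after quantile normalisation to -0.31, 0.69 and -0.03. Leaving out 1 mouse gave 47 probes without mouse 5, 47 without mouse 15, 49 without mouse 25, 56 without mouse 21, 135 without mouse 1 and 249 without mouse 11. With both thresholds the count was 13 without mouse 15. Directions below come from quantile normalisation, and named exceptions are given where a scaling turned one.

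Among the 247 miRNAs well above background on all 6 arrays, 28 were higher and 19 lower, with a median log2 fold change of 0.10. Groups without overlap were common: the 8 Gy values all lay above the 0 Gy values for 56 of the 247 and all below for 29. Among the other 171, 24 were higher and 0 lower (adjusted p below 0.05, limma), with a median of 0.25, and 47 stood apart as higher and 0 as lower. Of those 24 called, 13 were well above background on 0 of the 3 control arrays. These 13 entered the comparison only through irradiated arrays, so the split of 24 to 0 is not independent of the filter. They are counted among the 52 miRNAs called higher. The control arrays had 448 to 622 probes above background and the 8 Gy arrays 631 to 702, and the part of this difference in the dim increases was not tested.

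**Figure D1:**
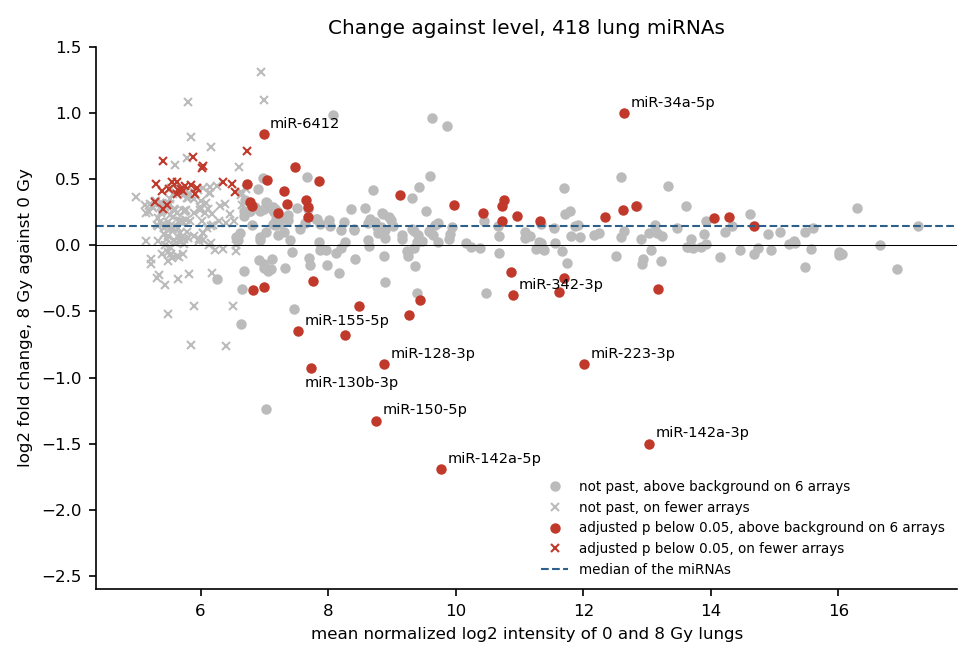
Change of 418 lung miRNAs at 8 Gy against 0 Gy (y axis, log2 fold change) plotted by mean normalised log2 intensity of the 6 lungs (x axis). Red marks an adjusted p below 0.05 in limma, crosses mark miRNAs above background on fewer than 6 arrays, and the dashed line is the median of 0.15. Bright miRNAs hold the large decreases and miR-34a-5p, while the crosses past the threshold all lie above 0.

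miR-34a-5p, which restrains the cell cycle and favours apoptosis downstream of p53, stood at 12.17, 12.20 and 12.04 in the 0 Gy mice. It stood at 13.06, 13.12 and 13.24 in the 8 Gy mice. The groups did not overlap, and the SD within each was 0.09 (n = 3). The log2 fold change was 1.00 ± 0.06 (SE), with an adjusted p of 9.71e-08 in limma, and the second probe gave 1.13. Direction and an adjusted p below 0.05 held in all 21 alternative settings run, with a log2 fold change from 0.87 to 1.87. The miR-34a hairpin lies at chr4:150068454-150068555 on the plus strand of GRCm38.p6.

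The other strand of the same hairpin, miR-34a-3p, was dim. Its values were 5.03, 5.16 and 5.08 at 0 Gy and 5.76, 5.80 and 5.63 at 8 Gy, and it was well above background on 0 of the 3 control arrays. After quantile normalisation the level at 8 Gy was at least 1.11-fold higher. miR-34a-3p was well above background on 7 of the 18 lung arrays, all of them irradiated, and was tested only through those. Its adjusted p of 1.6e-05 (limma) carries that selection and is no separate support. Its sign turned to -0.28 when arrays were scaled on the detected probes.

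The paralogs miR-34b and miR-34c, which come from a separate locus and are abundant in multiciliated cells, changed less. miR-34b-5p stood at 13.63, 13.56 and 13.19 at 0 Gy and 13.77, 13.83 and 13.69 at 8 Gy. The groups did not overlap, but the change of 0.30 did not pass (adjusted p = 0.0816, limma). miR-34c-5p gave 0.30 (adjusted p = 0.0857). miR-34b-3p stood at 7.36, 7.46 and 6.72 at 0 Gy and 7.72, 7.99 and 7.60 at 8 Gy, a rise of 0.59 (adjusted p = 0.0441). Mouse 21 was the lowest control, and without it miR-34b-3p gave 0.37 (adjusted p = 0.169). Its call was also lost without mouse 5, 15 or 25 (adjusted p from 0.0593 to 0.152). For miR-34c-3p the brightest probe gave 0.41 (adjusted p = 0.0935) and another probe 0.73 (adjusted p = 0.0172).

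Over the list of the miR-34 family and other miRNAs tied to p53, 11 of 12 were tested, 3 passed as higher, 0 as lower and 8 did not pass. Among the 3 was miR-34a-3p, which was tested only through irradiated arrays. The median was 0.30, beside 0.15 over all 418 miRNAs, and it was 0.13 without mouse 21. miR-192-5p (0.13), miR-194-5p (0.14, but 0.36 with an adjusted p of 0.0362 by its dimmer probe), miR-107-3p (-0.14), miR-15a-5p (-0.02) and miR-16-5p (-0.09) did not pass, and miR-215-5p was not tested. On the lung mRNA arrays, 1869 of 43979 probes passed at 8 Gy (4.25%), 740 higher (1.68%) and 1129 lower (2.57%). Of 19 mRNA targets of p53, 15 were higher and 0 lower, with a median of 1.27. Among them were Cdkn1a, a cell cycle inhibitor, at 3.03 ± 0.20 (SE; adjusted p = 2.12e-07, limma), and Mdm2, the ubiquitin ligase that limits p53, at 1.15 ± 0.14.

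**Figure D2:**
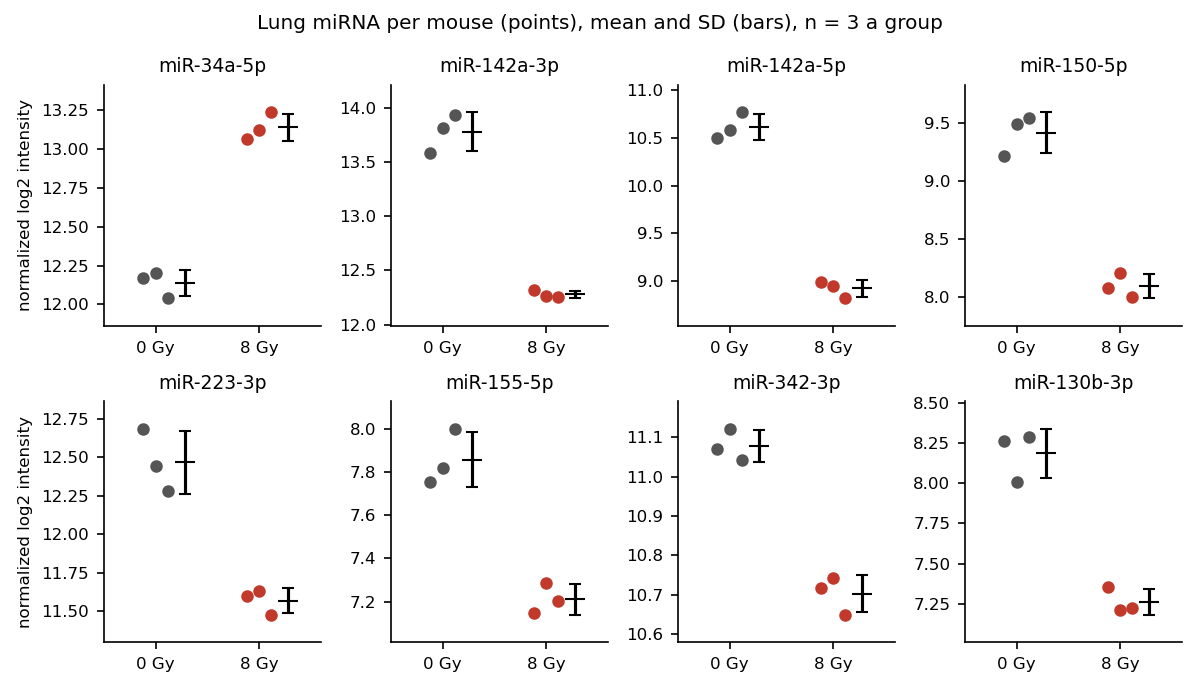
Normalised log2 intensity (y axes, not starting at 0 and scaled for each miRNA) of 8 miRNAs in each lung at 0 and 8 Gy. Points are mice, and bars are the mean and SD of 3. In all 8 panels the groups do not overlap, with miR-34a-5p higher at 8 Gy and the other 7 lower. The panels were chosen with these values known. Of 247 miRNAs above background on all 6 arrays, 56 stood apart as higher and 29 as lower. With arrays scaled to the 75th percentile of all probes, miR-223-3p, miR-155-5p and miR-342-3p turn sign.

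Of the 8 leukocyte miRNAs listed, 6 fell, 1 rose and 1 did not pass, with a median log2 fold change of -0.77, which was 0.03 with arrays scaled on all probes. miR-142a, needed for the development and function of several blood lineages, gives a pair of mature strands, and both fell. miR-142a-3p stood at 13.58, 13.82 and 13.94 at 0 Gy and at 12.32, 12.26 and 12.26 at 8 Gy. miR-142a-5p stood at 10.50, 10.58 and 10.77 and at 8.99, 8.95 and 8.82. The groups of both strands were more than 1 log2 unit apart at their nearest mice. The log2 fold changes were -1.50 ± 0.12 (adjusted p = 5.35e-07, limma) and -1.69 ± 0.11 (adjusted p = 9.98e-08). The hairpin lies at chr11:87756864-87756927.

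miR-150-5p, which is high in mature B and T lymphocytes and targets the transcription factor Myb, stood at 9.22, 9.49 and 9.55 at 0 Gy. At 8 Gy it stood at 8.08, 8.20 and 8.00. The change was -1.33 ± 0.11 (adjusted p = 5.35e-07, limma), and the second probe gave -1.06. Like miR-142a-3p and miR-34a-5p, it kept its direction and an adjusted p below 0.05 in all 21 alternatives, and miR-142a-5p did so in 20. The log2 fold change ranged from -1.56 to -0.52 for miR-150-5p, -1.88 to -0.64 for miR-142a-3p and -2.02 to -0.88 for miR-142a-5p. The fold threshold was thus not met in every alternative.

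miR-223-3p, a myeloid miRNA that limits neutrophil activation, stood at 12.68, 12.44 and 12.28 at 0 Gy and 11.60, 11.63 and 11.48 at 8 Gy. It fell by 0.90 ± 0.11 on the log2 scale (adjusted p = 8.19e-05, limma), with 0.05 when arrays were scaled on all probes. miR-155-5p, induced in activated lymphocytes and macrophages, stood at 7.76, 7.82 and 8.00 and at 7.15, 7.29 and 7.20. Its change was -0.65 ± 0.08 (adjusted p = 0.000119) against 0.01 with scaling on all probes, and its second, dimmer probe gave -0.22 (adjusted p = 0.142). miR-342-3p, encoded inside Evl, stood at 11.07, 11.12 and 11.04 and at 10.72, 10.74 and 10.65. It fell by 0.38 ± 0.09 (adjusted p = 0.021), with 0.48 under scaling on all probes, and its second probe gave -0.21 (adjusted p = 0.0935). The call of miR-342-3p was lost without mouse 5 (adjusted p = 0.0557) or mouse 25 (adjusted p = 0.0593).

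The remaining leukocyte miRNAs behaved otherwise. miR-146a-5p, a brake on innate immune signalling, differed by -0.13 (adjusted p = 0.162, limma). miR-181a-5p, which tunes T cell receptor signalling and is also made outside blood, was higher by 0.18 (adjusted p = 0.0499), while its second probe gave 0.20 (adjusted p = 0.145).

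On the mRNA arrays of lungs with the same sample numbers, most B and T cell marker genes were lower at 8 Gy too. Of 14 B cell genes tested 12 were lower, and of 13 T cell genes 10 were lower, with medians of -3.65 and -2.58. The mean level of the B cell list was between 9.55 and 10.44 at 0 Gy and between 6.75 and 6.85 at 8 Gy. That of the T cell list was between 9.84 and 11.74 and between 7.60 and 7.77. The 8 Gy mRNA arrays lay on other slides than the 0 Gy ones. Ms4a1, the B cell surface protein CD20, changed by -5.10 ± 0.41 (adjusted p = 1.61e-06, limma), and Cd3e, a T cell receptor chain, by -3.15 ± 0.36 (adjusted p = 6.47e-05). Both stayed well above background on all 3 arrays at 8 Gy. Blk, Cd79a, Fcer2a and Cd8a did so on 0 of the 3, so the list medians and means include values at background.

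As lists, neutrophil and macrophage genes did not fall in this way. Of 14 neutrophil genes, 1 was higher (Lcn2, 0.56) and 1 lower (Camp, -2.91), with a median of -0.01, and 0 of 12 macrophage genes passed in either direction. Their part in the fall of miR-223-3p was not tested. Of 20 proliferation genes 16 were lower, with a median of -1.55. In bulk tissue, fewer cells of a type and less RNA per cell cannot be told apart.

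The miRNAs that fell outside the leukocyte list were led by miR-130b-3p. It stood at 8.26, 8.01 and 8.29 at 0 Gy and 7.35, 7.21 and 7.22 at 8 Gy, without overlap. The change was -0.93 ± 0.10 (adjusted p = 2.59e-05, limma), and the second probe gave -0.84. miR-128-3p stood at 9.78, 8.82 and 9.38 and at 8.61, 8.36 and 8.31, where mouse 11 came closest to the irradiated lungs. It fell by 0.90 ± 0.18 (adjusted p = 0.00527). With arrays scaled on all probes both kept their sign without passing, miR-130b-3p at -0.23 (adjusted p = 0.288) and miR-128-3p at -0.07 (adjusted p = 0.792). The call of miR-128-3p was also lost with only the 6 arrays in the fit (adjusted p = 0.162) and in 36 arrays with slide as a term (adjusted p = 0.0707) or without it (adjusted p = 0.196).

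The miR-15/16 family, which represses cyclins, fell in part. miR-15b-5p stood at 13.30, 13.25 and 13.45 at 0 Gy and 13.05, 12.91 and 13.03 at 8 Gy, a fall of 0.33 (adjusted p = 0.00978, limma). miR-503-5p, whose seed differs by its last base, stood at 8.63, 8.82 and 8.69 and at 8.31, 8.24 and 8.22, a fall of 0.46 (adjusted p = 0.0182), although its second probe gave -0.20 (adjusted p = 0.12). The call of miR-503-5p was lost without mouse 15 (adjusted p = 0.0594) or mouse 25 (adjusted p = 0.0548). With arrays scaled on all probes the changes of miR-15b-5p and miR-503-5p were 0.63 and 0.37.

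Of 9 miRNAs tested from the miR-17 cluster and its paralogs, which are driven by Myc in dividing cells, 2 fell, 0 rose and 7 did not pass. These were miR-92a-3p at -0.36 (adjusted p = 0.00834, limma) and miR-20a-5p at -0.25 (adjusted p = 0.0318), and miR-92a-3p gave 0.59 with scaling on all probes. The second probe of miR-92a-3p gave -0.21 (adjusted p = 0.063), and the dimmer probe of miR-19b-3p passed at -0.19 (adjusted p = 0.0452). The median of the cluster was -0.04. miR-20a-5p was not followed singly under other scalings. miR-1949 (-0.68), miR-494-3p (-0.53), miR-3473g (-0.41) and miR-1904 (-0.34) also passed as lower, and each gave a value above 0, from 0.12 to 0.44, with scaling on all probes. miR-494-3p lost its call without mouse 1 (adjusted p = 0.0678), mouse 5 (0.101) or mouse 15 (0.0738), and miR-1904 without mouse 25 (0.0579).

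The increases other than miR-34a-5p were smaller. miR-6412 stood at 6.28, 6.78 and 6.66 at 0 Gy and 7.27, 7.49 and 7.47 at 8 Gy. It rose by 0.84 ± 0.12 (adjusted p = 0.000367, limma). miR-712-5p stood at 6.57, 6.60 and 5.93 and at 6.98, 7.09 and 7.17, where mouse 21 was low, and it rose by 0.72 ± 0.13 (adjusted p = 0.00426). Its second probe gave 0.42 (adjusted p = 0.0796).

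miR-6402 (0.67), miR-21a-3p (0.60), miR-195a-3p (0.59), miR-574-3p (0.49), miR-652-5p (0.49), miR-2861 (0.48) and miR-30c-2-3p (0.38) also passed. With scaling on the detected probes, miR-6402, miR-21a-3p, miR-195a-3p, miR-574-3p and miR-2861 turned to values between -0.22 and -0.04. Without mouse 21, the low control, miR-21a-3p, miR-195a-3p, miR-574-3p, miR-30c-2-3p and miR-2861 gave 0.34 to 0.41 and adjusted p values from 0.0922 to 0.169. These 5 also lost their calls without mouse 5, 15 or 25, as did miR-652-5p without mouse 15 or 25 and miR-6402 without mouse 25 (adjusted p from 0.0512 to 0.139). miR-672-5p (0.23) and miR-455-3p (0.28) passed only by a dimmer probe, at 0.56 and 0.50. miR-21a-5p, the abundant strand of an miRNA raised in many injured tissues, differed by 0.01, while the second probe of miR-21a-3p gave 0.10.

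Brighter miRNAs of the miR-30 family, abundant in epithelium and endothelium, rose by small amounts with little spread. miR-30d-5p went from 12.67 ± 0.02 to 12.97 ± 0.02 (SD, n = 3; adjusted p = 0.0047, limma), and miR-30c-5p and miR-30b-5p rose by 0.21 and 0.22. miR-30a-5p (0.13) and miR-30e-5p (0.05) did not pass by their brightest probes. Their dimmer probes passed, at 0.28 (adjusted p = 0.00646) and 0.29 (adjusted p = 0.0223) for miR-30a-5p and at 0.25 (adjusted p = 0.04) for miR-30e-5p. The dimmer probes of miR-30d-5p, miR-30c-5p and miR-30b-5p gave 0.46, 0.42 and 0.39. The median over all tested miRNAs was 0.15. These miR-30 strands were not followed singly under other scalings.

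Some large differences did not pass. miR-5128 stood at 8.37, 7.89 and 6.68 at 0 Gy and at 6.47, 6.38 and 6.38 at 8 Gy, without overlap, at -1.24 (adjusted p = 0.0543, limma) with mouse 21 nearest to them. Without mouse 21 it passed, at -1.75 (adjusted p = 0.0162). miR-8110 stood at 9.23, 9.28 and 8.95 and at 10.51, 9.18 and 10.66, so that mouse 15 lay among the controls (0.96, adjusted p = 0.133). miR-149-5p and the erythroid miRNA miR-486a-5p stood apart between groups, at 0.51 (adjusted p = 0.129) and 0.52 (adjusted p = 0.0744). Of 4 erythroid miRNAs tested, among them miR-451a and miR-144, 0 passed in either direction, with a median of 0.32. On the mRNA arrays 4 of 12 erythroid genes fell, led by Alas2, the first enzyme of heme synthesis in red cell precursors, at -6.84 ± 0.43 (adjusted p = 1.48e-07, limma).

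Lists of the lung's resident cells are counted by brightest probe, beside 12.4% of all miRNAs called higher and 4.55% lower. Endothelial miR-126a-3p stood at 16.65 ± 0.02 at 0 Gy and 16.65 ± 0.02 at 8 Gy (SD, n = 3), and 0 of 2 endothelial miRNAs passed, although a dimmer probe of miR-126a-5p gave 0.31 (adjusted p = 0.0464, limma) against -0.04 for its brightest. Of 6 epithelial miRNAs, 1 passed (miR-200c-3p, 0.21, adjusted p = 0.0365, limma), while its second probe gave 0.18 (adjusted p = 0.103) and the dimmer probe of miR-375-3p gave 0.40 (adjusted p = 0.04). Of 4 ciliated cell miRNAs 0 passed. Of 8 smooth muscle and fibroblast miRNAs, 1 passed (miR-143-3p, 0.27), and the dimmer probes of miR-145a-5p and miR-29c-3p gave 0.31 (adjusted p = 0.0192) and 0.26 (adjusted p = 0.0384). On the mRNA arrays 0 of 10 endothelial, 0 of 8 alveolar type 2 and 0 of 5 ciliated cell genes passed.

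The list of let-7 miRNAs, which mark differentiated cells, gave 0 of 9 past the threshold, from -0.16 for let-7b-5p to -0.01 for miR-98-5p, and let-7k, outside the list, gave 0.28 (adjusted p = 0.129, limma). Of 9 stress and inflammation miRNAs 2 passed, miR-21a-3p and miR-27a-3p (0.14, adjusted p = 0.0499, limma; 0.12 with an adjusted p of 0.129 by its second probe), and the dimmer probe of miR-210-3p gave 0.28 (adjusted p = 0.04). The miRNAs of heart and skeletal muscle varied between lungs of the same group. miR-1a-3p had an SD of 0.53 at 0 Gy and 0.61 at 8 Gy, miR-206-3p one of 2.60 and 2.57, and 0 of 6 passed.

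Families that share a seed were compared next. Families were built from the 354 miRNAs matched to a RefSeq sequence, so miR-34c-5p, miR-30b-5p and miR-30d-5p are not in them. Of 13 seeds with at least 3 such members, 9 held at least 1 call. A family of several members holds a call more readily than a single miRNA, so this count cannot be set against the 17% of all 418 miRNAs called. Of the 354 matched miRNAs, 59 were called. For the seed GGCAGUG, miR-34a-5p rose, while miR-34b-5p, miR-449a-5p (0.24) and miR-449c-5p (0.43) did not pass. For AGUGCAA, miR-130b-3p fell, while miR-130a-3p (0.01), miR-301a-3p (0.07) and miR-721 (1.08, adjusted p = 0.125, limma) did not pass.

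For AGCAGCA, miR-15b-5p fell and 5 relatives, among them miR-16-5p and miR-322-5p (-0.08), did not pass. For AUUGCAC, miR-92a-3p fell, while miR-25-3p and miR-32-5p gave -0.04 and -0.03. For AAAGUGC, miR-20a-5p and miR-20b-5p fell by 0.25 and 0.20, and miR-17-5p, a near copy of miR-20a-5p in the sequences above, gave 0.31 with an SD of 0.36 at 0 Gy (adjusted p = 0.129, limma). Differences between relatives were not themselves tested, and probes of near-identical miRNAs may share signal.

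**Figure D3:**
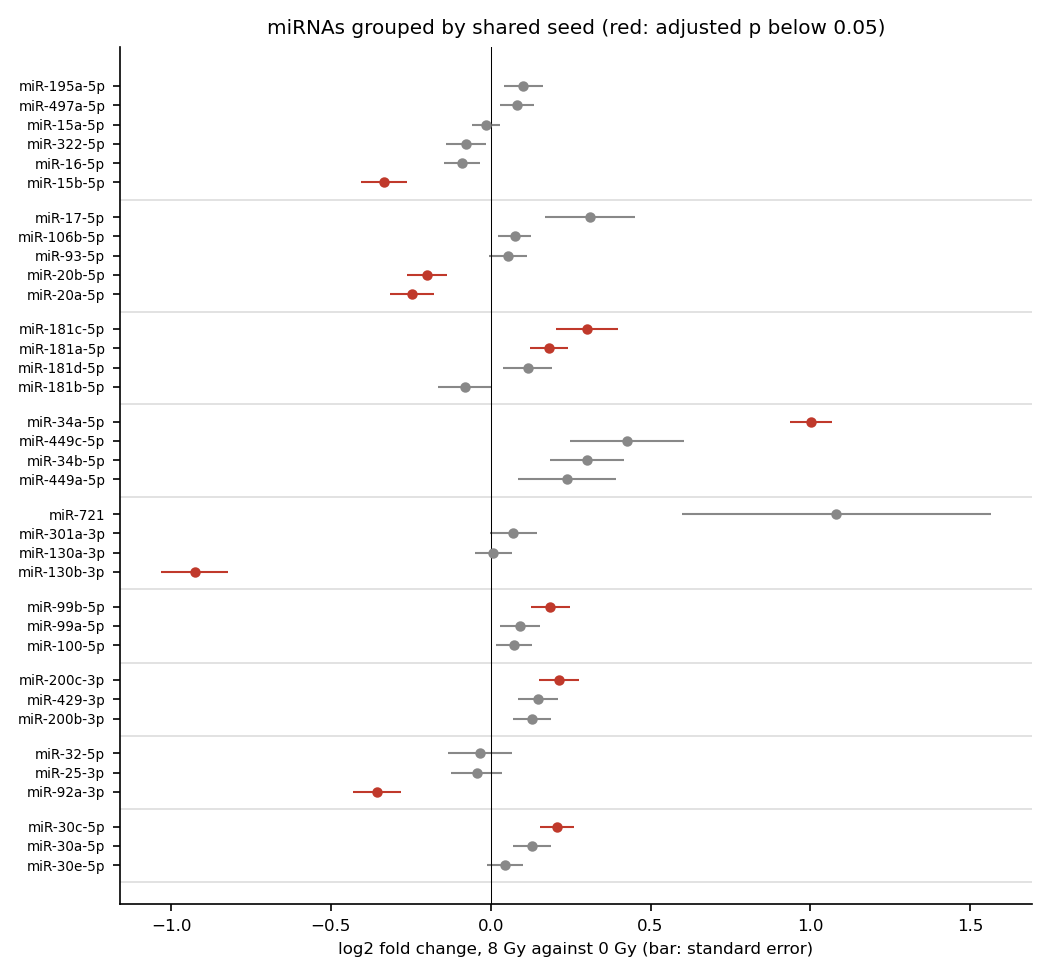
Log2 fold change at 8 Gy against 0 Gy (x axis) of lung miRNAs in the 9 seed families that hold a call, each family between grey lines. Points are miRNAs with bars of 1 SE, and red marks an adjusted p below 0.05 in limma. Grey points did not pass, and miR-130b-3p and miR-34a-5p stand farthest from their relatives apart from miR-721; under scaling on all probes miR-15b-5p and miR-92a-3p turn sign.

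Several miRNAs that fell lie inside longer genes, and the mRNA arrays measured those genes in lungs of the same numbers. For 8 lower miRNAs, 9 enclosing genes were tested, of which 3 were lower, 0 higher and 6 did not pass, beside 2.57% of all mRNA probes lower and 1.68% higher. 2610318N02Rik, around miR-130b (chr16:17124061-17124142), changed by -1.89 ± 0.45 (adjusted p = 0.0243, limma). F630028O10Rik, around miR-223 (chrX:96242817-96242926), changed by -0.98 ± 0.26 (adjusted p = 0.0404). Evl, an actin regulator around miR-342 (chr12:108658620-108658718), changed by -0.66 ± 0.15 (adjusted p = 0.0175). Smc4, a condensin subunit around miR-15b, gave -0.23 and did not pass. For 19 higher miRNAs, 3 of 20 enclosing genes were higher, among them Boc around miR-3081 at 0.84, and 17 did not pass. Coordinates are those of GRCm38.p6. Enclosing genes were matched by position without regard to strand, so such a gene need not carry the miRNA in its own transcript.

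The other doses place the 8 Gy lungs on a scale, although every contrast with 0 Gy shares the same 3 controls. At 1 Gy, on the same slide as the controls, 10 probes passed, and these were both probes each of miR-34a-5p, miR-142a-5p, miR-142a-3p and miR-130b-3p and 1 probe each of miR-150-5p and miR-135a-1-3p. miR-34a-5p was at 0.47 at 1 Gy, 0.90 at 2 Gy, 0.88 at 4 Gy, 1.00 at 8 Gy and 1.03 at 12 Gy. miR-142a-3p was at -0.66, -1.40, -1.45, -1.50 and -1.56.

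miR-150-5p was at -0.46, -0.87, -1.26, -1.33 and -1.61 over the same doses. miR-223-3p was at -0.25, -0.40, -0.53, -0.90 and -0.74, and miR-155-5p at -0.22, -0.09, -0.49, -0.65 and -0.75. miR-142a-3p and miR-150-5p were lower at each higher dose, and steps other than those next to 8 Gy were not tested.

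Neighbouring doses were tested against 8 Gy directly, with 4 Gy mouse 4 the only array of the 3 doses on another slide. Between 8 and 4 Gy, 0 of 762 probes (0%) passed in limma, with 16 at an unadjusted p below 0.05. Between 12 and 8 Gy, 2 probes (0.262%) passed, with 109 at an unadjusted p below 0.05. Both belong to miR-218-5p, which is encoded within Slit2 and Slit3 and differed by -0.47 (adjusted p = 0.0266) in its brightest probe, lower at 12 Gy. The same miRNA was higher at 8 Gy than at 0 Gy by 0.29 (adjusted p = 0.0341).

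**Figure D4:**
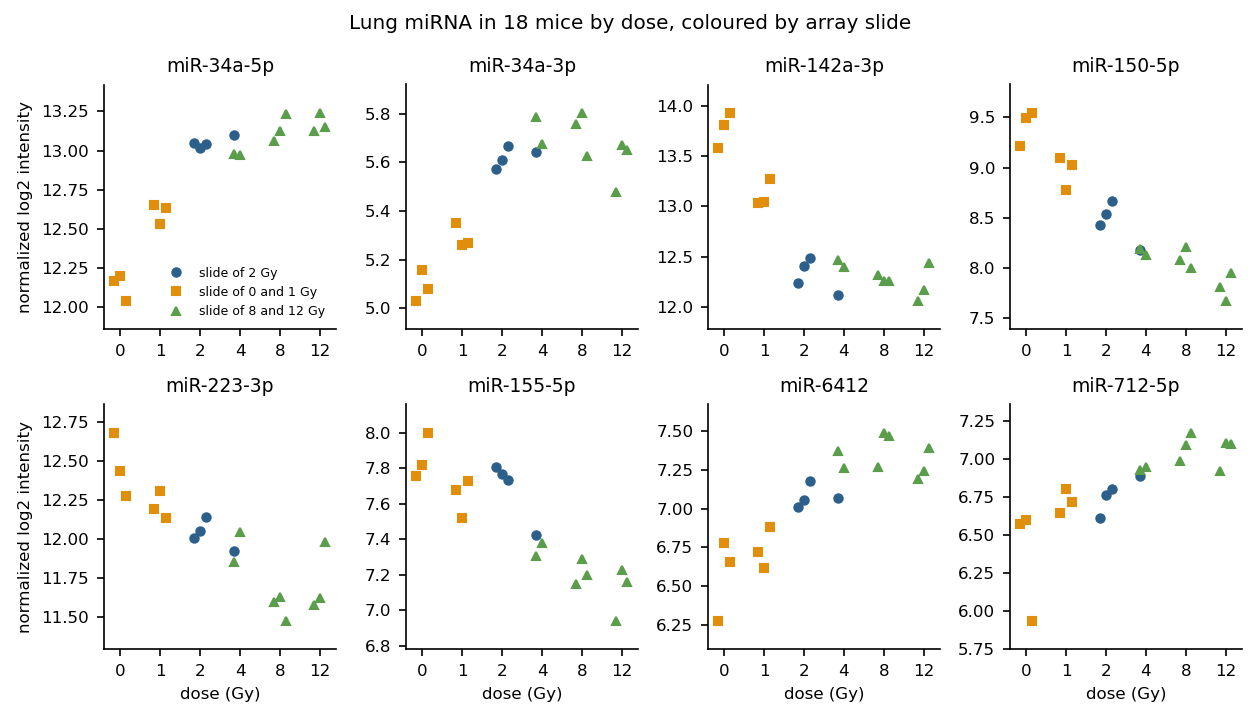
Normalised log2 intensity (y axes, not starting at 0) of 8 miRNAs in 18 lungs, 3 mice per dose (x axis, Gy, evenly spaced steps), with the symbol marking the array slide. The 0 and 1 Gy lungs share a slide, and on it miR-34a-5p is already higher and miR-142a-3p already lower at 1 Gy, while the 8 and 12 Gy lungs share another.

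The slide could be set as a term only with the liver arrays included, since the lung arrays alone leave 8 and 0 Gy on separate slides. In this fit of 36 arrays, which assumes that a slide shifts a probe alike in both tissues, 25 probes passed. The slide of the 8 Gy lungs held no liver array. It was joined to the other slides only through the 4 Gy lungs, of which mouse 4 alone lay on another slide. The slide-adjusted values therefore rest on that 1 array for this link. miR-34a-5p was at 1.16 (adjusted p = 0.0447, limma), miR-142a-3p at -1.88 (adjusted p = 0.00298) and miR-150-5p at -1.30 (adjusted p = 0.0447). miR-142a-5p was at -2.02 (adjusted p = 0.13), miR-223-3p at -0.79 (adjusted p = 0.134) and miR-130b-3p at -0.81 (adjusted p = 0.238). Of the named miRNAs with a value above 0, 9 turned sign, among them miR-6412 at -1.70 and miR-712-5p at -1.38.

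**Figure D5:**
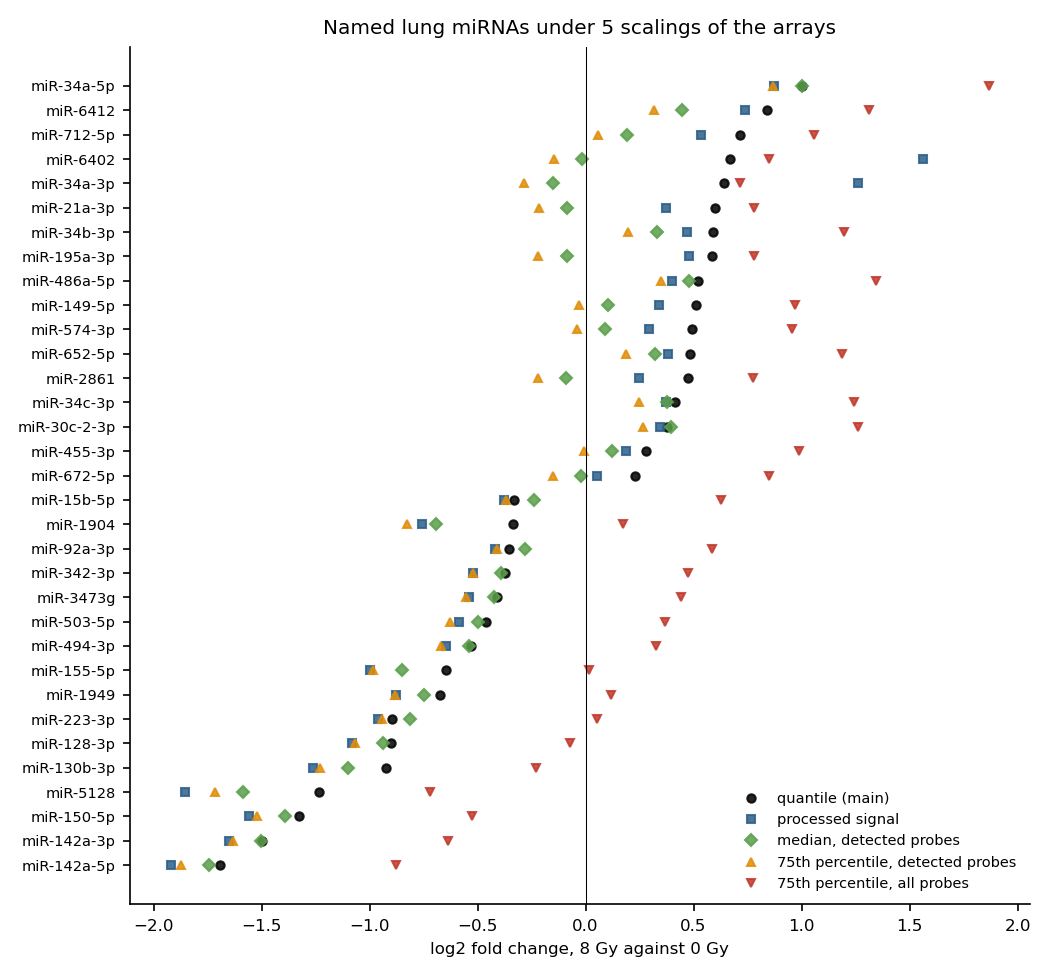
Log2 fold change at 8 Gy against 0 Gy (x axis) of 33 named lung miRNAs (y axis) with the arrays scaled in 5 ways, 1 symbol for each. miR-34a-5p stays right of 0 and miR-142a-5p, miR-142a-3p, miR-150-5p, miR-130b-3p and miR-128-3p stay left under all 5, though miR-130b-3p and miR-128-3p do not pass with scaling on all probes. Scaling on all probes puts every miRNA to the right of its quantile value, and scaling on detected probes takes 9 of the values above 0 below it.

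The response in lung was set against that in liver on the same scale of 36 arrays. In liver, as in lung, the 0 Gy arrays lay on other slides than the 8 Gy arrays. This fit held no slide term, so slide and dose cannot be told apart in its differences between tissues. The difference passed for 5 of 780 probes (0.641%), 2 higher and 3 lower in lung, with 77 at an unadjusted p below 0.05. Of these, the 2 probes of miR-142a-3p were well above background in liver, and the others were not. miR-142a-3p changed by -1.72 in lung and -0.92 in liver, a difference of -0.79 ± 0.17 (SE; adjusted p = 0.0217, limma). miR-34a-5p rose by 1.08 in lung and 1.23 in liver, and the difference of -0.16 ± 0.20 did not pass (adjusted p = 0.907). With the sample number as a fixed term, the 5 probes had adjusted p values from 0.094 to 0.217. A list of 10 miRNAs was taken from the published liver analysis and does not hold all that it names. Of these, 8 were tested in lung, of which 2 were higher, 4 lower and 2 did not pass (adjusted p below 0.05 at any size, limma). Among all 418 miRNAs 12.4% were called higher and 4.55% lower. The published analysis also required an absolute log2 fold change above 1, which only miR-34a-5p, miR-142a-5p and miR-142a-3p of the list met in lung.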

How the data were processed

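Per the labels, RNA was isolated from powdered lung with a miRNeasy kit and hybridised, Cy-3 only, to Agilent mouse miRNA arrays. The labelling text in the labels describes amplified poly(A) RNA for these arrays too, so how miRNA was labelled is not settled. The authors deposited scanner output from Agilent Feature Extraction (11.5.1.1 in the headers): linear intensity of each spot and its local background, not normalised, with a processed and a summed signal, and a series table of linear intensity values whose normalisation is not stated (18 liver columns of it were not used). Following the study's methods, median intensities were background-corrected (normexp, offset 0), quantile-normalised over 18 lung arrays, logged and averaged per probe after dropping control and outlier spots. limma 3.58.1 in R 4.3.3 fitted 6 dose groups with empirical Bayes moderation, and Benjamini-Hochberg adjustment ran over all tested probes. Array number, 3 a group, limits the precision. In the lung fits, p-values and standard errors rest on a spread pooled over 18 lungs of 6 dose groups, not on the 6 compared lungs alone. With only those 6 arrays in the fit, 18 of the 33 named miRNAs lost their calls.

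Named are the 15 largest increases and decreases among miRNAs with a probe past 0.05, the 5 largest in each direction among those without overlap, and list members. Any other miRNA was named after its values were seen. The members and lists were chosen with earlier results of these data known. Where a group was not above background, a fold is a lower limit: the brighter group's mean against, on each dim array, the higher of its lowest level above background and the probe's own. Scripts were tested on simulated data. Alternatives were other scalings, signals, filters, slide terms, the sample number as a block and each mouse left out. Median centring and the fits of 36 arrays were added after the data were seen.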

Additional observations from a re-analysis of the deposited data

Results flagged for a closer look

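For 5 probes the 8 Gy response differed between lung and liver by a test of the difference itself (limma, 780 probes). The fit held no slide term, and in each tissue the 0 Gy arrays lay on other slides than the 8 Gy arrays. The dimmer probe of miR-150-5p differed by -0.64 ± 0.11 (SE; adjusted p = 0.00163), at -0.66 in lung and -0.02 in liver, where it was not well above background. The brightest probe of miR-142a-3p differed by -0.79 (adjusted p = 0.0217) and its second probe by -0.75 (adjusted p = 0.0455, with -1.56 in lung and -0.81 in liver). miR-672-5p differed by 0.63 (adjusted p = 0.0217), at 0.34 and -0.28, and miR-34a-3p by 0.64 (adjusted p = 0.0404), at 0.50 and -0.14. Neither was well above background on any of the 6 liver arrays at 0 and 8 Gy, nor miR-34a-3p on any of the 3 control lung arrays. For these 2 and the dimmer probe of miR-150-5p the liver values lay at background, so the differences give no size of a difference between tissues. Of these 5 probes, 0 had a difference above 1 in size.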

How the results depend on the processing

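Quantile normalisation gave 8 probes past both thresholds and 136 past the adjusted p alone. The count past both was 30 with the 75th percentile of detected probes, 143 with that of all probes and 17 with the processed signal. It was 27 with the total signal per miRNA, 22 with the series table, 18 with median centring and 4 with probes averaged per miRNA. In 36 arrays with slide as a fixed term it was 15. Without the fold threshold, 136 passed by the adjusted p and 277 by the unadjusted p. The count past the adjusted p was 432, 607, 52 (total signal), 73 (averaged), 54 without a filter on dim probes, 19 with only the 6 arrays, 226 with slide as a random block, 314 with median centring and 25 in 36 arrays with or without the slide term. Leaving out each mouse gave 7 to 13 and 47 to 249. The lowest counts, 47, 47 and 49, came without mice 5, 15 and 25, and without mouse 21 the count was 56 and without mouse 11 it was 249.

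With the 75th percentile of all probes the sign turned for miR-223-3p (0.052), miR-1949 (0.12), miR-155-5p (0.015), miR-494-3p (0.33), miR-3473g (0.44), miR-503-5p (0.37), miR-342-3p (0.48), miR-92a-3p (0.59), miR-1904 (0.17) and miR-15b-5p (0.63). With that of detected probes it turned for miR-6402 (-0.15), miR-34a-3p (-0.28), miR-574-3p (-0.042), miR-21a-3p (-0.22), miR-195a-3p (-0.22), miR-672-5p (-0.15), miR-2861 (-0.22), miR-455-3p (-0.0090) and miR-149-5p (-0.029). With median centring it turned for miR-6402 (-0.016), miR-34a-3p (-0.15), miR-21a-3p (-0.085), miR-195a-3p (-0.088), miR-672-5p (-0.019) and miR-2861 (-0.090), and with the series table for miR-6402 (-0.24), miR-195a-3p (-0.32) and miR-2861 (-0.076). With slide as a fixed term in 36 arrays it turned for miR-6412 (-1.70), miR-712-5p (-1.38), miR-34b-3p (-0.18), miR-6402 (-0.30), miR-574-3p (-0.99), miR-30c-2-3p (-0.51), miR-455-3p (-2.26), miR-652-5p (-0.84) and miR-486a-5p (-0.79).

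List medians moved as follows. The leukocyte median of -0.77 was 0.034 with all probes, -0.96 with detected probes, -0.98 with the processed signal, -0.93 with the series table, -0.88 with the total signal, -0.83 with median centring, -0.70 with an offset of 50, -0.66 averaged, and -0.92 and -0.66 in 36 arrays with and without slide. The let-7 median of -0.07 was 0.89, -0.11, -0.12 (processed), -0.040 (total), 0.020 (centring), and -0.23 and -0.10 in 36 arrays, and -0.084 to -0.027 leaving out mice. The miR-17 cluster, at -0.04, gave 0.72, -0.28, -0.20 (processed), -0.15 (table), -0.11 (total), -0.15 (centring), -0.087 (averaged) and -0.11 (36 arrays, slide), and -0.072 to -0.0072 leaving out mice. The miR-34 and p53 list, at 0.30, gave 1.03, 0.029, 0.16 (centring) and -0.035 (36 arrays, slide), and 0.13 to 0.39 leaving out mice. Stress miRNAs gave 1.01, 0.0089, 0.029 (processed) and -0.10 (slide), and erythroid miRNAs 1.26 and -0.27 (slide). The processed mRNA signal gave -4.16 for B cell, 0.11 for alveolar type 2, -0.88 for erythroid and 1.36 for p53 genes. Causes were not tested.

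The total signal called 4 miRNAs between 12 and 8 Gy. The difference between tissues gave 6 probes past both thresholds with slide as a fixed term and 3 with quantile normalisation within tissue, against 0. The labels give lung and liver the same sample numbers without saying that 1 mouse gave both. Deviations of same-numbered arrays correlated at -0.14 to 0.07, and 1 of 6 lung arrays correlated best with its own number. With the number as a replicate block the count past both thresholds was 0. Slide as a fixed term in the lung alone could not be fitted for 8 against 0 Gy.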
